A study of Mus musculus with 6 samples.

Results

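Collagen chain genes encode the alpha chains that wind around each other to form collagen molecules. They were taken here as every gene whose symbol has the form Col, a type number, a and a chain number, which gave 44 of the 55401 genes in the files. They were grouped by the kind of assembly the chain enters: 11 fibrillar chains, 7 chains of basement membrane collagens (with the anchoring fibril chain Col7a1), 9 network-forming chains, 9 FACIT chains (fibril-associated collagens with interrupted triple helices), 2 multiplexins and 6 transmembrane or other chains.

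RNA was sequenced from 6 mouse primary cancer cell lines of strain C57BL/6. The tissue label is primary tumor, and the cells were freed from the tumours with collagenase, dispase and trypsin and then grown in culture, so all 6 lines had been through a collagen-degrading step. By their labels, 3 lines came from WT mice (replicates 2, 4 and 6) and 3 from Rag1KO mice (replicates 1, 3 and 7), and values below follow that order within each label. Rag1 is needed to assemble antigen receptor genes, and a host without it lacks mature T and B cells but keeps its other cells, innate immune cells included. The comparison asks how tumour cells grown in immunocompetent hosts differ from those grown in immunocompromised ones. Tumour type, passage number, age and sex of the hosts were not given in the sources used here. Whether each line had an animal of its own is not stated, so the p-values reflect only how far these samples spread, which may be technical.

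Collagens are the main structural proteins of the extracellular matrix. Procollagen chains are hydroxylated, folded and trimerised in the endoplasmic reticulum, exported in large carriers, trimmed at their ends and cross-linked outside the cell. In tumours the interstitial collagens I, III and V form fibrils that are mostly made by fibroblast-like cells, the basement membrane collagen IV forms sheets under epithelium and around vessels, and collagen VI forms beaded filaments that link the interstitial matrix to basement membranes.

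The libraries held 55409583 to 62998051 reads assigned to genes, and values below are reads divided by 1 size factor per library, called normalized counts. A count of 0 reads allows up to 3 reads, or 2.64 to 3.48 normalized counts, a limit that covers counting error only. Rag1 had 0 reads in the 3 lines labelled WT but 39.3, 126 and 177 normalized counts in the lines labelled Rag1KO. Gene-level values cannot tell whether those reads cover the deleted part, so they neither check nor refute the label, and lines are named by label throughout. WT replicate 6 stood apart: it was the lowest of the 6 libraries for 30.2% of the 16137 genes tested and the highest for 27.4%, against 10.8% to 16.3% for each other library. Results are therefore given with and without it. The 8 epithelial markers summed to 9.68 to 349 normalized counts, most in WT replicate 4, where Cdh1 had 158 and Krt18 126, with Epcam at 0 in all 6 lines. The 8 leukocyte markers summed to 132 to 1780, with Lyz2 at up to 1493 and Csf1r at up to 429, and with the T cell marker Cd3e at 0 in all 6 lines. The Y-linked genes Kdm5d and Uty had 0 reads in WT replicates 2 and 4, 1994 and 1196 normalized counts in WT replicate 6, and at least 1161 and 683 in the lines labelled Rag1KO. Once WT replicate 6 is left out, label and this sex-linked difference therefore cannot be told apart. Ddx3y, also Y-linked, had at most 2.01 normalized counts in WT replicates 2 and 4 and 4345 in WT replicate 6. The Y-linked gene Eif2s3y went another way, with 0 reads in all 3 lines labelled WT and 1438 to 2944 normalized counts in those labelled Rag1KO. Its difference cannot be told apart from label in all 6 lines. In a bulk sample, fewer cells of a type and less RNA per cell cannot be told apart.

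The sequence just upstream of 5 chains is shown because the results turn on these genes: Col18a1 for its level in WT replicate 6, Col6a1 and Col6a2 because they kept a near-constant ratio, and Col5a1 and Col10a1 because the 2 groups did not overlap. Sequences come from RefSeq (GRCm38.p6, the mm10 assembly), which matched 35 of the 44 chains with 38 windows, and are limited to the 250 bases before the RefSeq start that lie outside annotated exons, so the stretches of Col6a1 and Col18a1 end short of that start. Capitals mark matches, on either strand, to the TATA box letters TATAAA, the CAAT box letters CCAAT or the GC box letters GGGCGG, and matches do not overlap here.
Col18a1, chr10:77166549-77166780, minus strand: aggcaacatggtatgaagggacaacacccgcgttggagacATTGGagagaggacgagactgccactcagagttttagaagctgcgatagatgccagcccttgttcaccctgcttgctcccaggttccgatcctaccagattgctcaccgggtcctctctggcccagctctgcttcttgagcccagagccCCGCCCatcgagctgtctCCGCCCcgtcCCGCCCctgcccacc
Col6a1, chr10:76726169-76726294, minus strand: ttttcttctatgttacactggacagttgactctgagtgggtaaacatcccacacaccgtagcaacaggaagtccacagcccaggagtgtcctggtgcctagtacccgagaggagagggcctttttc
Col6a2, chr10:76623631-76623880, minus strand: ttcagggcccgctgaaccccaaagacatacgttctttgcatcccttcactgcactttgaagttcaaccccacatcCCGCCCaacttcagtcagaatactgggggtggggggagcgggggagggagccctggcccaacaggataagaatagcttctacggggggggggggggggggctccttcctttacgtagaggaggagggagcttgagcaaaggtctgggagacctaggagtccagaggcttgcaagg
Col5a1, chr2:27886175-27886424, plus strand: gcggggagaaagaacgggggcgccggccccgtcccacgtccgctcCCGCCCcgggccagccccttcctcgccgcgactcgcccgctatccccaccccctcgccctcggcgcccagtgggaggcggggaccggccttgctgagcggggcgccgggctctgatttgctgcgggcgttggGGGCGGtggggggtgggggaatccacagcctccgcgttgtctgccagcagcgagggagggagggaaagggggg
Col10a1, chr10:34389731-34389980, plus strand: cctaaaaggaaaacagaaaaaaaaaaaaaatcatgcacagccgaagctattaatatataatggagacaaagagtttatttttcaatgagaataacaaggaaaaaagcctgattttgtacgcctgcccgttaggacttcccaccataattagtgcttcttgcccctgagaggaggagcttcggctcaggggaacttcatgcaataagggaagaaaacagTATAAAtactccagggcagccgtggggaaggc
The Col10a1 window held the TATA box letters 32 bases before its start and neither of the other motifs. The Col5a1 window and the Col18a1 window shown held the GC box letters and no TATA box letters. The printed stretch of Col6a1 held none of the 3 motifs. Col18a1 had another RefSeq start (window chr10:77113706-77113955), whose window held none of the 3 motifs. Col6a2 also had another start, whose window held the GC box letters. Gene-level values do not tell which start was used. The GC box letters occurred in 57.9% of collagen chain windows and in 32.7% of all 32851 windows of the same length, the CAAT box letters in 34.2% and 33.8%, and the TATA box letters in 13.2% and 12.4%. The median GC content was 59% in collagen windows and 52.4% in all windows, so these shares are a description and not a comparison at equal base composition.

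No collagen chain passed the test between the groups. Of the 44 chains, 36 had enough reads to be tested, and limma called 0 of them at an adjusted p under 0.05, against 1 of all 16137 genes (0.0062%). The adjusted p of every tested chain was at least 0.850 by limma. edgeR called 0 chains (0% of genes) and DESeq2 0 chains (0.403% of genes), where DESeq2 gave no p for 6 of the 36, Col2a1, Col11a1, Col7a1, Col6a4, Col6a5 and Col18a1. At an unadjusted p under 0.05 limma had 4 chains, Col10a1, Col4a4, Col6a4 and Col4a5 (4.67% of genes passed), edgeR 3 chains (4.44%), DESeq2 5 chains (6.54%) and limma-voom 3 chains (4.54%). Without WT replicate 6, limma and edgeR again called 0 chains (0.0298% and 0% of genes) and DESeq2 called 1, Col10a1 (0.901%), with no adjusted p for 5 chains. At an unadjusted p under 0.05 there were then 4 chains by limma (4.12%), 4 by edgeR (4.07%) and 5 by DESeq2 (7.49%).

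Most chains nevertheless had a lower mean in lines labelled WT. The log2 fold change, as WT minus Rag1KO of log2(normalized count + 1), was negative for 30 of the 36 tested chains, where 50% of all genes tested were negative, and its median over the chains was −1.24 against 0.00 over all genes. Without WT replicate 6 it was negative for 28 of 38 chains (48.5% of genes) and the median was −0.66 against 0.01. The groups did not overlap for 8 of the 36 chains, all 8 lower in every line labelled WT, against 5.6% of all genes lower and 6.49% higher (12.1% in either direction). These were Col5a1, Col5a2, Col24a1, Col4a4, Col4a5, Col6a4, Col10a1 and Col16a1. WT replicates 2 and 4 alone lay below every line labelled Rag1KO for the same 8 chains, of 38 (9.6% of genes), and above for 0 (10.9%). A chain lower in every line labelled WT is always lower in WT replicates 2 and 4. The count of 8 could therefore not fall when WT replicate 6 was left out, and is no separate check. It shows only that no further chain joined these 8.

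**Figure D1:**
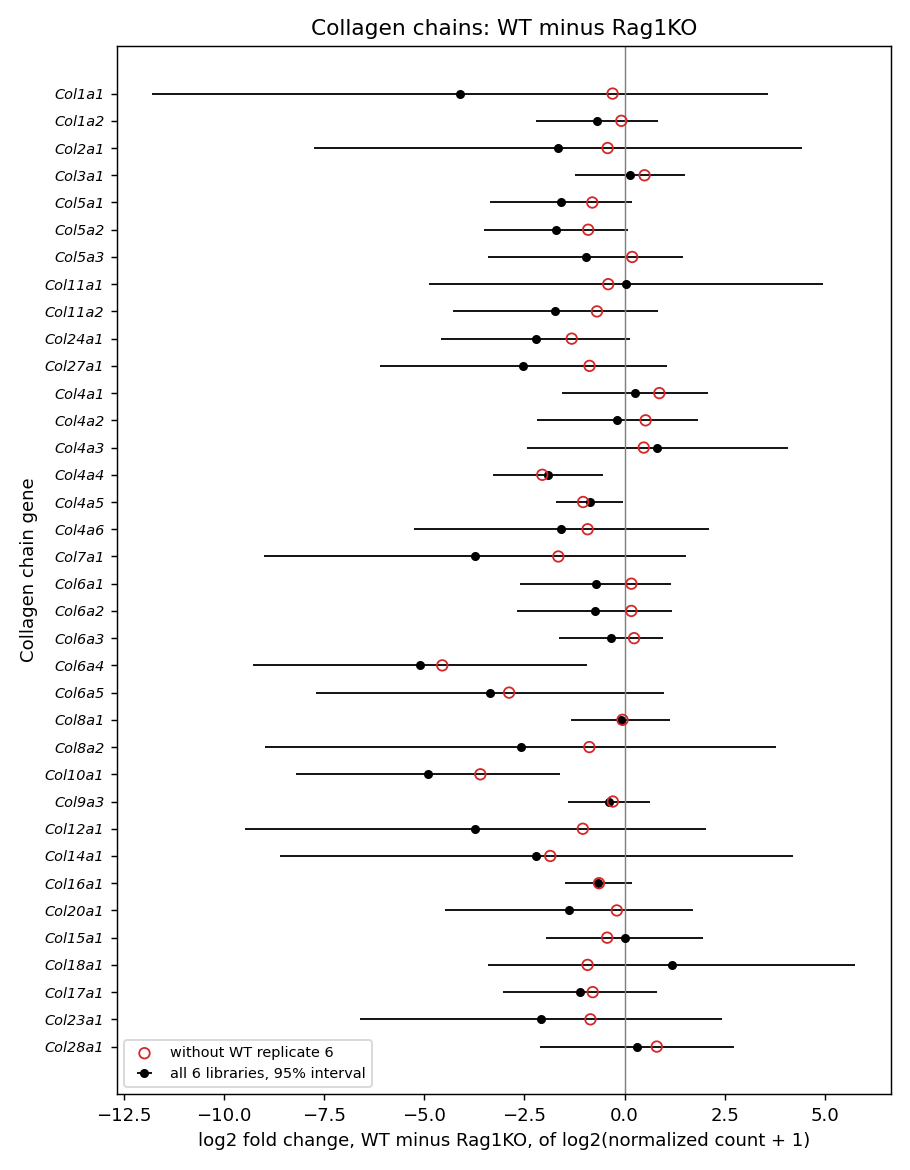
Points give the log2 fold change of each of the 36 tested collagen chains (x axis, lines labelled WT minus lines labelled Rag1KO, with its 95% interval), filled with all 6 libraries and open without WT replicate 6. Of the 36 chains 30 lie below 0, and for Col1a1, Col12a1 and Col18a1 the open point lies far from the filled one.

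Among the fibrillar chains, the main chains of tendon-like and scar fibrils, Col1a1 and Col1a2 encode the 2 subunits of collagen I. Col1a1 (chromosome 11, 94936224 to 94953042, mm10) had 478322, 668008 and 206 normalized counts in the lines labelled WT, the last being replicate 6, and 487349, 1051710 and 657096 in those labelled Rag1KO. Its partner Col1a2 (chromosome 6, 4504814 to 4541544) had 446025, 631271 and 151806 normalized counts in the lines labelled WT and 434020, 596023 and 684707 in those labelled Rag1KO. WT replicate 6 was thus 2323-fold below the lowest other line for Col1a1 and 2.86-fold below it for Col1a2, while WT replicates 2 and 4 lay within or next to the range of the lines labelled Rag1KO. The log2 fold change of Col1a1 was −4.10 (SE 3.14) by limma and −0.95 by edgeR and by DESeq2 with all 6 libraries, and −0.30 by limma without WT replicate 6, and that of Col1a2 was −0.68 (SE 0.62) and −0.08.

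Col3a1, the collagen III chain of pliable tissues such as skin and vessel wall, had 205030, 350041 and 126015 normalized counts in lines labelled WT and 105461, 231903 and 278928 in those labelled Rag1KO, with overlapping groups. Its lowest line was Rag1KO replicate 1, whereas Col1a1, Col1a2, Col5a1 and Col5a2 were lowest in WT replicate 6. Col5a1 and Col5a2, whose collagen V molecules sit inside collagen I fibrils and set their width, were lower in every line labelled WT. Col5a1 (chromosome 2, 27886425 to 28039514) had 92001, 69396 and 15427 normalized counts in lines labelled WT and 96871, 196582 and 143212 in those labelled Rag1KO, means of 58941 ± 39343 and 145555 ± 49896 (SD, n = 3). Col5a2 (chromosome 1, 45374321 to 45503282) had 132852, 119534 and 23476 against 190193, 344871 and 201926 normalized counts. The groups did not overlap for either chain, though the highest Col5a1 value labelled WT and the lowest labelled Rag1KO lay close together. Their log2 fold changes were −1.60 (SE 0.72) and −1.72 (SE 0.73), and −0.81 and −0.91 without WT replicate 6, with a limma adjusted p of 0.850 for both. Col5a2 lies 24.6 kb from Col3a1 on chromosome 1, on the other strand.

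Col24a1, a minor fibrillar chain, was low in every line, with 40.3, 28.0 and 4.40 normalized counts in lines labelled WT and 77.6, 44.0 and 181 in those labelled Rag1KO, without overlap (log2 fold change −2.21, SE 0.96). The cartilage chains Col2a1 and Col11a1 varied widely and shared their highest line. Col2a1 had 389, 4.83 and 2.64 normalized counts in lines labelled WT and 10.5, 18.5 and 1158 in those labelled Rag1KO. Col11a1 had 227, 18.3 and 165 against 11.5, 32.4 and 1633 normalized counts. Rag1KO replicate 7 was the highest library for both, and the groups overlapped for both. The fold change of Col11a1, 0.03 by limma, was −2.05 by edgeR and −2.04 by DESeq2, so it has no settled direction. The other fibrillar chains, Col5a3, Col11a2 and Col27a1, ranged from 1155 to 17962, from 20.2 to 507 and from 25.5 to 1992 normalized counts, each lowest in WT replicate 6. Over the 11 fibrillar chains the median log2 fold change was −1.66, and −0.42 without WT replicate 6. That line was the lowest library for 9 of them (30.2% of all genes).

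**Figure D2:**
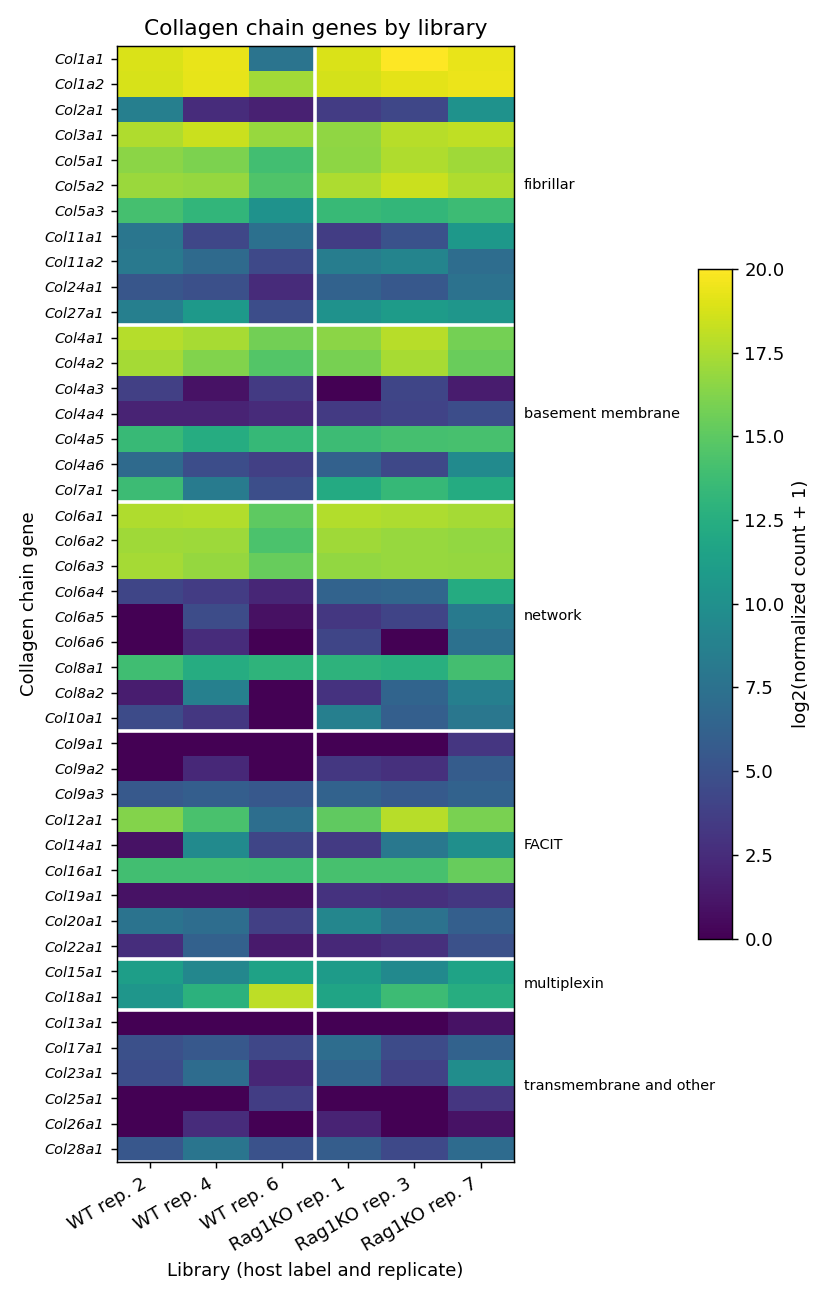
Colour gives log2(normalized count + 1) of each of the 44 collagen chain genes (rows, grouped by class) in each of the 6 libraries (columns, lines labelled WT on the left and Rag1KO on the right of a white line). Col1a1 and Col12a1 are dark (low) in WT replicate 6 alone, Col18a1 is bright (high) there, and Col6a4 is bright in Rag1KO replicate 7.

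Chains that assemble with each other were compared as 5 pairs, and 2 of the pairs kept near-constant proportions. Levels of different genes are compared here per kilobase of exonic length. Col6a1 stood to Col6a2 at 2.67, 2.98 and 2.99 in lines labelled WT and 2.66, 3.02 and 2.78 in those labelled Rag1KO, a spread of 1.13-fold while the Col6a1 level itself spanned 6.62-fold. Col5a1 stood to Col5a2 at 0.782, 0.656 and 0.742 against 0.575, 0.644 and 0.801, a spread of 1.39-fold while the levels spanned 12.7-fold and 14.7-fold. Both chains of each of these pairs were thus lower together in WT replicate 6. Col4a1 to Col4a2 ran from 1.12 in Rag1KO replicate 7 to 2.03 in WT replicate 4.

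The collagen I pair departed from its usual proportion in 1 line. Per kilobase Col1a1 stood to Col1a2 at 2.03, 2.004 and 0.00257 in lines labelled WT and 2.13, 3.34 and 1.82 in those labelled Rag1KO. The level of these ratios depends on the length used: Col1a2 has 12426 annotated exonic bases but a longest coding transcript of 5348, and with coding transcripts the ratios were 0.967, 0.954 and 0.00122 against 1.013, 1.59 and 0.865. On either scale WT replicate 6 lay far below the other 5 lines. The ratio of Col8a1 to Col8a2, both network chains, ran from 7.56 in WT replicate 4 to 4290 in WT replicate 2, with at least 1808 in WT replicate 6, where Col8a2 had 0 reads.

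**Figure D3:**
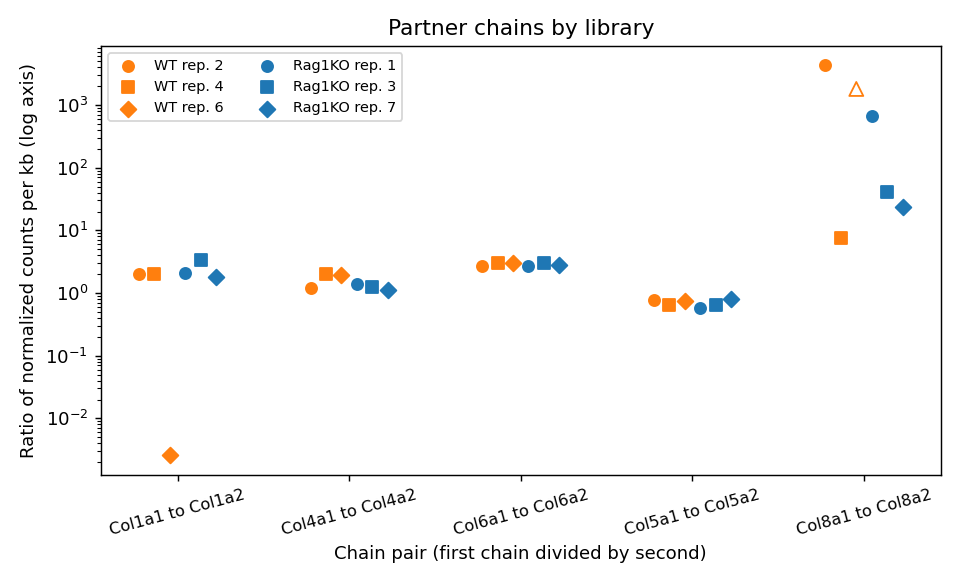
Each point is 1 library's ratio of normalized counts per kilobase of exonic length (y axis, log scale) for 5 pairs of partner chains (x axis), orange for lines labelled WT and blue for those labelled Rag1KO, with a symbol for each replicate and an open triangle for a lower bound. The Col6a1 to Col6a2 points lie between 2.66 and 3.02, and the WT replicate 6 point for Col1a1 to Col1a2 lies at 0.00257.

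The collagen chains together took 3.80%, 4.57% and 1.44% of all normalized counts in the lines labelled WT and 3.60%, 5.59% and 4.77% in those labelled Rag1KO. WT replicate 6 was the lowest and the other 5 lines overlapped. Per kilobase, fibrillar chains made up 52.0%, 64.2% and 30.6% of the collagen total in lines labelled WT and 59.1%, 65.9% and 70.6% in those labelled Rag1KO. Multiplexins made up 38.8% in WT replicate 6 and at most 0.446% in the other 5 lines. Whether multiplexins or fibrillar chains were the larger class in WT replicate 6 depended on the length used. Per kilobase of longest coding transcript, fibrillar chains made up 40.8% there and multiplexins 33.9%. Without division by length these shares were 40.2% and 33.2%. The highest mean levels per kilobase over the 6 lines were those of Col1a1 (84887 ± 52258, SD, n = 6), Col1a2 (39485 ± 15628), Col6a1 (38640.5 ± 15840) and Col3a1 (22028 ± 9405). Col1a2 and Col6a1, neighbours in that order, differed by less than their SD. The order was not the same in every line. By exonic length Col6a1 lay above Col1a2 in WT replicate 2 and Rag1KO replicate 1. That comparison depends on the length used, as Col1a2 has 12426 annotated exonic bases but a longest coding transcript of 5348. In WT replicate 6 Col18a1 was the highest (37024 per kilobase) and Col1a1 had 31.4.

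**Figure D4:**
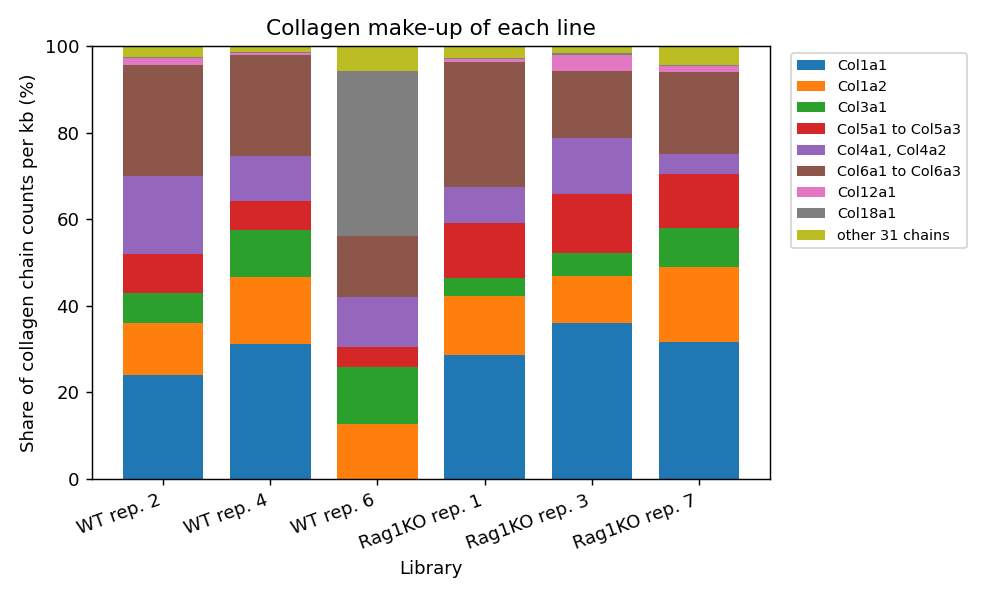
Stacked bars give the share of collagen chain normalized counts per kilobase of exonic length (y axis, %) taken by single chains or small groups of chains (colours) in each of the 6 libraries (x axis). Col1a1 takes 24.1% to 36.1% in 5 lines and 0.0325% in WT replicate 6, where Col18a1 takes 38.3%.

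Among basement membrane chains, Col4a1 and Col4a2 form the collagen IV found in nearly all basement membranes, and their genes lie head to head on chromosome 8 with 22 bases of overlap. Col4a1 had 225141, 172220 and 54439 normalized counts in lines labelled WT and 93350, 236394 and 57062 in those labelled Rag1KO. Col4a2 had 163166, 75249 and 25211 against 59836, 169868 and 44987 normalized counts. The groups overlapped for both, and the 2 highest lines of Col4a1 and of Col4a2 were the same, Rag1KO replicate 3 and WT replicate 2. The log2 fold change was 0.25 (SE 0.74) for Col4a1 and −0.19 (SE 0.82) for Col4a2, and 0.87 and 0.52 without WT replicate 6.

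Col4a5, a chain of the specialised collagen IV of kidney and other organs, had 11586, 5365 and 11014 normalized counts in lines labelled WT and 13335, 17374 and 18224 in those labelled Rag1KO, means of 9322 ± 3439 and 16311 ± 2612 (SD, n = 3). All 3 lines labelled WT lay below all 3 labelled Rag1KO, with WT replicate 6 within the range of the others of its label. limma gave a log2 fold change of −0.87 (SE 0.34, 95% interval −1.72 to −0.03), with a limma adjusted p of 0.850. It was −1.04 without WT replicate 6 and −0.52 without WT replicate 4. Col4a5 and its head-to-head neighbour Col4a6 lie on chromosome X. Xist, the RNA of the inactive X chromosome, had 59776, 32733 and 5.28 normalized counts in lines labelled WT and 1.94 to 15.3 in those labelled Rag1KO, and its part in the Col4a5 difference was not tested. Col4a6 had 118, 25.1 and 13.2 normalized counts in lines labelled WT and 71.9, 19.7 and 779 in those labelled Rag1KO, overlapping groups with Rag1KO replicate 7 as the highest line.

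Col4a4 was near the floor, with 3.02, 2.90 and 4.40 normalized counts in lines labelled WT and 9.58, 15.1 and 25.2 in those labelled Rag1KO, without overlap (log2 fold change −1.91, SE 0.56, and −2.06 without WT replicate 6). Its neighbour Col4a3 ranged from 0 to 17.4 normalized counts with overlapping groups. Col7a1 encodes the anchoring fibrils below epithelial basement membranes. It had 13353, 317 and 26.4 normalized counts in lines labelled WT and 4889, 10924 and 5103 in those labelled Rag1KO. WT replicates 4 and 6 were low and WT replicate 2 was the highest of all 6 lines, so the groups overlapped.

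Of the network-forming chains, Col6a1, Col6a2 and Col6a3 form the common collagen VI. Col6a1 (chromosome 10, 76708792 to 76726168) had 202084, 217911 and 32899 normalized counts in lines labelled WT and 207871, 191599 and 163108 in those labelled Rag1KO. Col6a2, 85.2 kb away on the same strand, had 143753, 139183 and 20910 against 148349, 120715 and 111359 normalized counts. Both were similar in 5 lines and lower in WT replicate 6, and so was Col6a3, on chromosome 1, with 41904 normalized counts there and 109282 to 163597 in the other lines. Without WT replicate 6 the log2 fold changes of Col6a1, Col6a2 and Col6a3 turned from −0.72, −0.75 and −0.34 to 0.17, 0.17 and 0.24.

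The collagen VI chains Col6a4, Col6a5 and Col6a6, which can take the place of Col6a3, lie in a row on chromosome 9. Col6a4 (105989454 to 106096783) had 17.1, 10.6 and 3.52 normalized counts in lines labelled WT and 81.5, 93.9 and 5031 in those labelled Rag1KO. The groups did not overlap, and Rag1KO replicate 7 was 53.6-fold above the next line. Its log2 fold change was −5.11 (SE 1.70, 95% interval −9.28 to −0.94; −4.55 without WT replicate 6 and −3.17 without Rag1KO replicate 7), with a limma adjusted p of 0.850. Col6a5 had 0, 24.1 and 0.880 against 8.62, 16.2 and 304 normalized counts, and Col6a6, too low to be tested, had 0, 4.83 and 0 against 17.2, 0 and 172. Rag1KO replicate 7 was thus the highest line for all 3 neighbours, by 12.6-fold for Col6a5 and 10.00-fold for Col6a6.

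Col10a1 encodes the collagen X network of hypertrophic cartilage. It had 23.2, 8.69 and 0 normalized counts in lines labelled WT and 398, 64.9 and 242 in those labelled Rag1KO, means of 10.6 ± 11.7 and 235 ± 167 (SD, n = 3). Every line labelled WT lay below every line labelled Rag1KO. Its log2 fold change was −4.91 (SE 1.34, 95% interval −8.21 to −1.62), with an adjusted p of 0.850 by limma, 0.891 by edgeR and 0.0919 by DESeq2. Without WT replicate 6 it was −3.60, with an adjusted p of 0.982 by limma and 0.00954 by DESeq2, the 1 call of a chain by any tool run. Col10a1 (chromosome 10, 34389981 to 34397085) lies within Nt5dc1 on the opposite strand, which had 967, 556 and 617 normalized counts in lines labelled WT and 1239, 753 and 307 in those labelled Rag1KO. The strand setting of the read counting was not given in the sources used here, so reads of the 2 genes cannot be told apart. The 7 chondrocyte markers found summed to 1384 to 4110 normalized counts in lines labelled WT and 861 to 3429 in those labelled Rag1KO. Sox9 alone had 2014, 1227 and 4103 against 1698, 433 and 3252. Acan and Matn1 had at most 1.16 and 1.93 in any line. Matn3 had 9.06, 26.1 and 0 against 60.4, 409 and 7.75, and Comp 26.2, 115 and 5.28 against 171, 17.4 and 23.3, with overlapping groups for both. The part of these markers in the Col10a1 difference was not tested.

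Col8a1, a chain of the hexagonal networks of vessel and eye, had 15076, 5410 and 8328 normalized counts in lines labelled WT and 7925, 6353 and 16323 in those labelled Rag1KO, with overlapping groups (log2 fold change −0.09, SE 0.50). Its partner Col8a2 had 2.01, 410 and 0 against 6.71, 88.1 and 395 normalized counts. Lines of either label were high and low for Col8a2.

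Of the 9 FACIT chains, 5 were tested. Col12a1, which coats collagen I fibrils, had 82250, 19267 and 150.5 normalized counts in lines labelled WT and 34759, 241252 and 65868 in those labelled Rag1KO. WT replicate 6 was 128-fold below the lowest other line, and the other 5 overlapped (log2 fold change −3.72, SE 2.35, by limma, −1.76 by edgeR and by DESeq2, and −1.04 by limma without WT replicate 6). Col16a1 had 15915, 15600.5 and 15228 normalized counts in lines labelled WT and 19001, 18789 and 41410 in those labelled Rag1KO. Here the lines labelled WT lay close together, WT replicate 6 included, and below all 3 labelled Rag1KO (log2 fold change −0.66, SE 0.34, −0.64 without WT replicate 6 and −0.28 without Rag1KO replicate 7). Col14a1, another coat of collagen I fibrils, had 1.01, 750 and 17.6 against 9.58, 263 and 992 normalized counts, with no order by label.

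The tested chains Col9a3 and Col20a1 ranged from 44.0 to 78.6 and from 13.2 to 566 normalized counts with overlapping groups, and the start of Col20a1 overlaps 9230112E08Rik on the same strand, so its reads are uncertain. Col9a1, Col9a2, Col19a1 and Col22a1 were too low to be tested, with at most 7.75, 56.2, 8.72 and 74.3 normalized counts. Col19a1 (0.880 to 1.01 against 5.79 to 8.72) and Col9a2 (0 to 3.86 against 5.79 to 56.2) were also lower in every line labelled WT.

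The multiplexins carry a collagen core with glycosaminoglycan chains, and the end of Col18a1 is the precursor of endostatin. Col18a1 (chromosome 10, 77052178 to 77166548) had 1476, 7299 and 259944 normalized counts in lines labelled WT and 3354, 13105 and 5504 in those labelled Rag1KO. WT replicate 6 was 19.8-fold above the highest other line, and among the other 5 lines the groups overlapped. Its log2 fold change was 1.18 (SE 1.87) by limma and 3.60 by edgeR and by DESeq2 with all 6 libraries, and −0.92 by limma without WT replicate 6. Pcbp3, which lies between Col6a1 and Col18a1, and Slc19a1, which overlaps the far end of Col18a1 on the other strand, showed no such peak. Pcbp3 had 881 normalized counts in WT replicate 6 and 543 to 1421 in the other lines, and Slc19a1 had 1241 there and 1244 to 2241 in the others. Col15a1, the other multiplexin, had 2396, 624 and 3019 normalized counts in lines labelled WT and 2037, 706 and 3142 in those labelled Rag1KO, a log2 fold change of 0.00 (SE 0.80) with groups that covered the same range.

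Transmembrane and other chains had at most 884 normalized counts in any line. Col23a1 had 25.2, 132 and 3.52 normalized counts in lines labelled WT and 91.0, 13.9 and 884 in those labelled Rag1KO, with Rag1KO replicate 7 highest by 6.68-fold. Col28a1 had 41.3, 215 and 32.6 against 57.5, 20.9 and 128 normalized counts. The groups overlapped for both, and for the hemidesmosome chain Col17a1, which ranged from 18.5 to 142. Col13a1, Col25a1 and Col26a1 were too low to be tested, with at most 0.969, 11.4 and 4.83 normalized counts.

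Many of the extreme values came from single lines. WT replicate 6 was the lowest line for 25 of the 36 tested chains (30.2% of all genes) and the highest for 1 (27.4%). It lay at least 10-fold below every other line for 4 chains, Col1a1, Col12a1, Col27a1 and Col7a1 (4.04% of all genes), and at least 10-fold above for Col18a1 alone (0.508%). Rag1KO replicate 7 was the highest line for 14 chains (15.2%), and at least 4-fold above every other line for 5 of the tested chains, Col6a4, Col6a5, Col11a1, Col23a1 and Col4a6 (0.669%). The limits of 10-fold and 4-fold were chosen after the values were seen. In Rag1KO replicate 7 the 7 Schwann and neural crest markers summed to 1661 normalized counts, against 133 to 547 in the other lines, with Sox10 at 323 against at most 0.969 and Erbb3 at 331 against at most 40.6. The cartilage matrix gene Hapln1 had 140 there and 0 in the other lines. No other chondrocyte marker found was highest there. Acan and Matn1 had 0 reads there. Matn3 had 7.75 there and up to 409 elsewhere, Comp 23.3 and up to 171, Cnmd 5.81 and up to 13.5, and Sox9 3252 and up to 4103. The part of these markers in the collagen values of Rag1KO replicate 7 was not tested.

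Marker genes of mesenchymal cells also stood apart in WT replicate 6. The 10 fibroblast markers summed to 26802 normalized counts in WT replicate 6 and to 101830 to 192449 in the other 5 lines, with Thy1 at 0.880 and Pdgfra at 16592 there. WT replicate 6 was the lowest line for 5 of the 10 (30.2% of all genes), but the highest for Fap, with 686 against at most 184. The 8 smooth muscle and pericyte markers summed to 6841 against 70292 to 472481, with Cnn1 at 0. Most of that sum was Cspg4, at 6476 there and at most 1018 elsewhere, and Rgs5, at 117, lay within the range of the other lines. The 8 osteoblast markers summed to 575376 against 3395 to 33221, nearly all of it Spp1 at 556239 normalized counts, with Dmp1 at 16865 and Sp7 at 0. The part of these cell-state markers in the collagen values of WT replicate 6 was not tested.

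The other genes of collagen production and use were read from 7 lists with 69 genes, of which 61 were tested. limma called 0 of them with all 6 libraries and 0 without WT replicate 6, and edgeR and DESeq2 called 0 with all 6 (DESeq2 with no adjusted p for 5 genes), while 4 had an unadjusted p under 0.05 by limma (4.67% of all genes). The log2 fold change was negative for 49 of the 61 (50% of all genes), with a median of −0.50 against 0.00 over all genes. Without WT replicate 6 it was negative for 43 of the 61 and the median was −0.18. The list medians then turned from −1.56 to 0.05 for trimming, from −0.72 to 0.55 for fibril binding and from −0.30 to 0.17 for degrading enzymes. The groups did not overlap for 8 genes lower in lines labelled WT (5.6% of all genes) and 1 higher (6.49%).

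For folding and modification, 16 of 19 tested genes had a negative fold change (50% of all genes). The groups did not overlap for 6, all lower in lines labelled WT (5.6% of all genes). WT replicate 6 was the lowest line for 11 of the 19 (30.2% of all genes). Fkbp10, a chaperone of procollagen, had 15115, 14107 and 12296 normalized counts in lines labelled WT and 16782, 26603 and 22485 in those labelled Rag1KO (log2 fold change −0.65, SE 0.22, limma adjusted p = 0.850). P4ha3, a prolyl hydroxylase subunit, had 2206, 1662 and 309 against 3414, 3836 and 5192 normalized counts. Plod3, a lysyl hydroxylase, had 7009 to 13034 normalized counts in lines labelled WT and 14376 to 21913 in those labelled Rag1KO. P3h4, a partner of the collagen hydroxylases, likewise had 2387 to 4488 against 4568 to 9786. The collagen chaperone Serpinh1 ranged from 53488 to 102075 normalized counts, with overlapping groups.

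For export, Sec24d, a coat protein of the carriers that take procollagen to the Golgi, had 8902, 10296 and 6564 normalized counts in lines labelled WT and 10778, 12019 and 14455 in those labelled Rag1KO, without overlap. Its partner Sec23a overlapped, at 4280 to 7819 and 6692 to 10174. For trimming, Pcolce2, an enhancer of the enzyme that removes the procollagen end, had 515, 149 and 24.6 against 4194, 1586 and 200.54 normalized counts, and the protease Tll1 had 228, 57.9 and 5.28 against 544, 73.0 and 237. The groups overlapped for both, and WT replicate 6 was the lowest line for both.

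For cross-linking, all 5 tested genes were lowest in WT replicate 6 (30.2% of all genes). Lox had 8.80 normalized counts there against 63252 to 206436 in the other lines, and Loxl2 had 2.64 against 10342 to 111658. Loxl4 had 3113, 1090 and 182 normalized counts in lines labelled WT and 4576, 2196 and 4001 in those labelled Rag1KO, and Loxl3 had 20581, 7378 and 6893 against 34495, 25845 and 10135. Both overlapped between the labels. Among receptors, the collagen uptake receptor Mrc2 was lower in every line labelled WT, with 25289.7 to 31780.4 normalized counts against 31862 to 48992, a gap smaller than the spread within either label. The integrin chain Itga11 had 92.7, 7185 and 0.880 normalized counts against 620, 22972 and 13662, with overlapping groups.

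Of proteins that bind fibrils, Lum was the 1 gene of the lists that was higher in every line labelled WT, with 51.4, 2478 and 78.3 normalized counts against 24.9, 0 and 50.4. The lowest Lum value labelled WT and the highest labelled Rag1KO lay close together, and WT replicate 4 was far above the other 5 lines. Its relative Dcn had 2828, 11372 and 412 against 634, 197 and 1705 with overlap. Of the degrading enzymes, the membrane collagenase Mmp14 had 53352, 80540 and 46571 normalized counts against 35604, 60266 and 29088, and Adamts1 had 4119, 9750 and 5008 against 21706, 3788 and 16164. The groups overlapped for both enzymes. The collagenase Mmp13 had 23.2, 739 and 3.52 normalized counts against 17.2, 15.1 and 21.3, with WT replicate 4 far above the other 5 lines. DESeq2 without WT replicate 6 gave it an adjusted p of 0.0498, the 1 call in these lists by limma, edgeR or DESeq2 with or without that line. Against the median of the other 5 lines, WT replicate 6 had a median log2 difference of −2.52 over the 36 collagen chains, −4.09 over the cross-linking genes and −3.40 over the trimming genes. It was −0.45 over folding genes, −0.30 over export genes and −0.02 over all genes tested. Over fibril binding genes it was −2.05, over degrading enzymes −0.67 and over receptors −0.12. The cross-linking and trimming lists held only 5 and 6 tested genes, which ran from −13.7 to −1.58 and from −9.52 to 2.95.

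**Figure D5:**
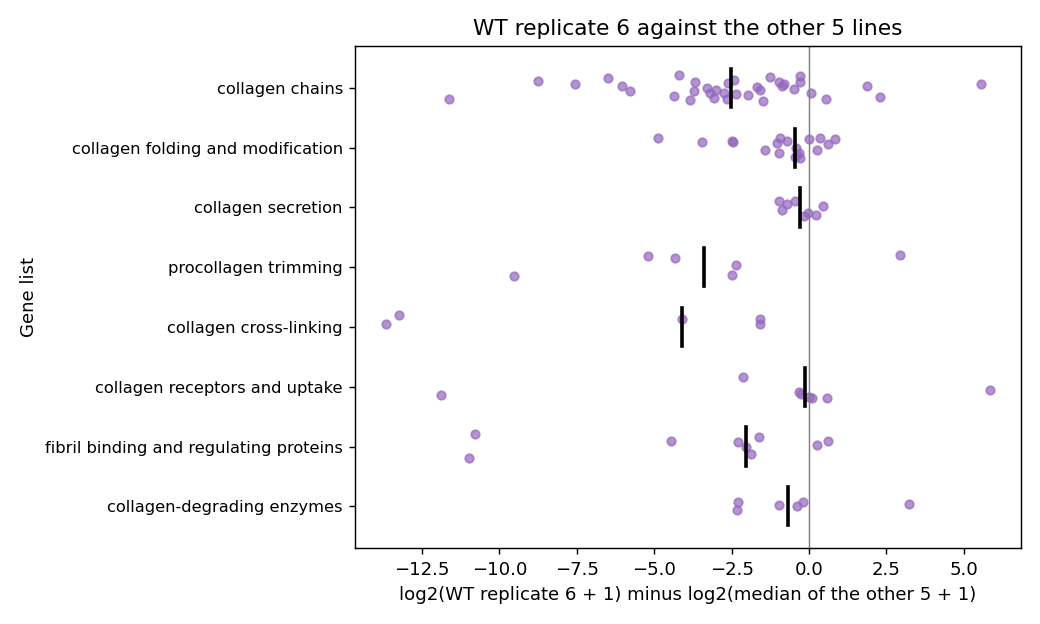
Each point is 1 gene's log2(normalized count + 1) in WT replicate 6 minus that of the median of the other 5 lines (x axis), for the collagen chains and the 7 lists of collagen-related genes (y axis), with list medians marked. The medians are −2.52 for collagen chains, −4.09 for cross-linking genes and −0.30 for export genes.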

How the data were processed

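RNA-seq values of 6 lines were deposited as 1 normalized signal per gene and library. Per the submitters' processing notes, the mm10 build was used and the tools were DESeq2, STAR 2.7.9a, FastQC and Trim Galore 0.6.6, each without a stated role. The read counter, its strand setting and the annotation are not given in the sources used here. The deposited signal values are whole reads divided by 1 size factor per library (100% of values were whole within 0.01), and the factors equal median-of-ratios factors. Gene IDs were matched to GENCODE M21 (55141 of 55401 found), which gave coordinates and exonic lengths.

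The collagen chains and gene lists were chosen with earlier results of these data known. Groups followed the labels. Low genes were removed with filterByExpr of edgeR applied to the reads, which left 16137 genes. limma 3.58.1 with a mean-variance trend was fitted to log2(value + 1) for lines labelled WT minus lines labelled Rag1KO, two-sided, with Benjamini-Hochberg adjustment over all genes and a threshold of 0.05. Class shares and pair ratios were untested. Libraries of 1 group differed beyond counting noise for 75.9% to 83.3% of genes, which does not tell separate cultures from repeat preparations.

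Every chain was named. Values in all libraries were given for chains past the threshold or without overlap between groups, the 2 highest of each class per kilobase, paired chains, and chains with highest over lowest library above 100. Collagen-related genes were named when past the threshold or not overlapping, up to 4 a list by lowest p, and filled to 2. Other genes, such as Lox, Loxl2 and Serpinh1, were picked after their values were seen.

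Alternatives were edgeR 4.0.16, DESeq2 1.42.0 and limma-voom on recovered reads, TMM and library-size scaling, other filters, pseudocounts of 0.1 and 10, and leaving out each library. Added after seeing the data were edgeR and DESeq2 without WT replicate 6 and the longest coding transcript as length. The fits were run in R 4.3.3. Those of limma and edgeR were also run on simulated data, whose outcome is not given here.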

Additional observations from a re-analysis of the deposited data

How the results depend on the processing

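No paired analysis was possible because the replicate numbers are not shared between the groups. Over all genes, limma called 1 gene, edgeR 0, DESeq2 65 and limma-voom 0. Leaving out each library gave 0 to 5 genes, the 5 without WT replicate 6, where edgeR called 0 and DESeq2 151 (added after seeing the data). Collagen chains called were 0 under every alternative listed in the methods with all 6 libraries, 0 to 0 with a library left out, and 1, Col10a1, by DESeq2 without WT replicate 6. The same fit called 1 collagen-related gene, Mmp13. Chains without overlap between groups numbered 8 to 13 with a library left out, 13 without WT replicate 2 and 13 without WT replicate 4. A group of 2 lines lies apart from 3 others more easily than a group of 3 does. The share over all genes is given only without WT replicate 6 (9.6% lower and 10.9% higher), so the rise to 13 is not read as a result. The median log2 fold change of the chains ran from −1.45 to −0.66 with a library left out and was −0.79 by edgeR and by DESeq2. The median Col6a1 to Col6a2 ratio, 2.88, was 1.52 without length and 1.72 per coding transcript, and the median Col5a1 to Col5a2 ratio, 0.699, was 0.488 per coding transcript. The median Col1a1 to Col1a2 ratio, 2.02, also depended on the length used. Of 36 chains, 13 changed direction under some alternative, 7 of these without WT replicate 6, beside Col15a1, which was at 0.00 and ran from −0.61 to 0.70 with a library left out. With a library left out the ranges were −3.80 to 0.43 for Col2a1, −0.29 to 0.50 for Col3a1, −1.79 to 0.19 for Col5a3, −1.38 to 2.14 for Col11a1, −0.21 to 0.87 for Col4a1, −0.82 to 0.52 for Col4a2 and −0.14 to 1.96 for Col4a3. They were −1.19 to 0.17 for Col6a1, −1.22 to 0.17 for Col6a2, −0.75 to 0.24 for Col6a3, −0.48 to 0.31 for Col8a1, −0.92 to 2.81 for Col18a1 and −0.54 to 0.92 for Col28a1. Col11a1 was −2.05 by edgeR, −2.04 by DESeq2 and −0.12 with a pseudocount of 10. The cause was not tested. The 16 collagen-related genes named by rule kept their sign under every alternative run for them. Of those picked after their values were seen, Loxl2, Creb3l1, Adamts2 and Thbs2 turned from −4.15, −1.63, −3.24 and −3.43 to 0.29, 0.09, 0.13 and 0.40 without WT replicate 6. Tested chains with 3 reads or fewer in some library, at the limit of depth there, were Col2a1, Col4a3, Col4a4, Col6a5, Col8a2, Col10a1 and Col14a1.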

Other observations

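Beyond the genes above, 2 regulators of the collagen matrix were also extreme in WT replicate 6. Creb3l1, a transcription factor of the endoplasmic reticulum, had 225 normalized counts there and 5618 to 11333 in the other 5 lines. Adamts2, which removes the amino-terminal propeptide of collagens I and III, had 9.68 there and 4641 to 35043 in the other lines. Adamts14, a relative of Adamts2, went the other way, with 21835 normalized counts in WT replicate 6 and 2158 to 8839 in the other lines. Thbs2, a matricellular protein that affects fibril shape, had 65.1 there and 94583 to 283554 elsewhere. Bgn and Sparc, which bind collagen fibrils, were the lowest in the same line but remained abundant, at 120818 and 82038 normalized counts. These genes were picked after their values were seen, and their differences between the 2 labels did not pass limma's threshold.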
